A study of Homo sapiens with 6 samples.

Results

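The expression of 10 genes of death receptor signalling and necroptosis was examined in HT29 cells, a human colorectal adenocarcinoma line, after knockdown of the glycolytic enzyme Aldolase A (ALDOA). The genes were TNFSF10, TNFRSF10A, TNFRSF10B, FAS, TNFRSF1A, FADD, CFLAR, RIPK1, RIPK3 and MLKL. They were chosen by symbol for their roles in the pathway, with earlier results of these data known. All 10 were found among the 28278 gene symbols of the deposited count files. The siALDOA group held 3 libraries of cells transfected with an siRNA against ALDOA, and the siControl group held 3 libraries of cells given a scrambled siRNA. RNA of both groups was taken after 48 h. The labels describe the groups as ALDOA KD and WT, name a single siRNA against ALDOA, and list no untransfected cells, so every library came from transfected cells of 1 line.

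TRAIL, the product of TNFSF10, is a ligand of the tumor necrosis factor family that is best known for killing transformed cells. It binds the death receptors DR4 and DR5, which, like FAS, recruit the adaptor FADD and caspase-8, while c-FLIP restrains caspase-8 at the same complex. The TNF receptor TNFR1 signals through RIPK1, and when caspase-8 is blocked, RIPK1 and RIPK3 can lead to phosphorylation of MLKL, which breaches the plasma membrane in the process called necroptosis. HT29 cells are a common laboratory model of necroptosis. TNFSF10, MLKL and FAS are also known as genes that interferons can induce.

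Library totals ranged from 27277538 to 33237914 counts on genes, and ribosomal RNA genes took 7.71% to 17.4% of them. All levels below are CPM (the counts of a gene scaled to a common library total) after TMM normalization, which corrects for differences in library composition. They were compared by edgeR's quasi-likelihood test with Benjamini-Hochberg adjustment over all 15307 genes with enough counts, and the threshold was an adjusted p of 0.05. ALDOA itself was at 632 ± 38.2 CPM in siControl and fell to 289 ± 13.7 CPM in siALDOA (SD, n = 3 each). Of 10 markers of colon epithelium, 9 were expressed at testable levels, led by KRT8, and LGALS4 had 0 counts in all 6 libraries. The epithelial markers summed to between 9200 and 9660 CPM in siControl and between 8390 and 8620 CPM in siALDOA, and 1 of them, KRT18, was lower. The 6 leukocyte markers summed to 13.2 to 15.5 CPM in siControl and to 14 to 15.1 CPM in siALDOA, nearly all of it CD68, and PTPRC had at most 1 count in any library. The fibroblast markers summed to at most 2.77 CPM and the endothelial markers to at most 2.12 CPM in any library, and 1 endothelial marker, PECAM1, was lower (log2 fold change -1.23, adjusted p = 0.0429). In such bulk samples, fewer expressing cells and less RNA per cell cannot be told apart.

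The mRNA of the death ligand TRAIL was 2.19-fold higher in siALDOA than in siControl, while the other 9 genes differed by small amounts or not beyond the error. With a single siRNA against ALDOA and no untransfected cells, loss of ALDOA and other effects of that siRNA cannot be told apart. TNFSF10 and CFLAR were up-regulated and TNFRSF10B was down-regulated at an adjusted p < 0.05 in edgeR's test. The remaining 7 genes, FAS, TNFRSF10A, TNFRSF1A, FADD, RIPK1, RIPK3 and MLKL, did not pass the threshold. Thus 3 of the 10 genes were called, where 9.66% of all tested genes were called (4.36% higher and 5.29% lower). The calls of CFLAR and TNFRSF10B were lost in 5 and 4 of the 6 fits that left out 1 library. All 10 genes passed the filter on low counts, with at least 119 counts in every library. Their median log2 fold change was 0.029, and that of all tested genes was 0.002. The groups did not overlap for 5 of the 10 genes, against 27.7% of all tested genes. Of the 5, TNFSF10, FAS, CFLAR and MLKL were higher in every siALDOA library, as were 13.1% of all tested genes, and TNFRSF10B was lower in each, as were 14.6%.

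**Figure D1:**
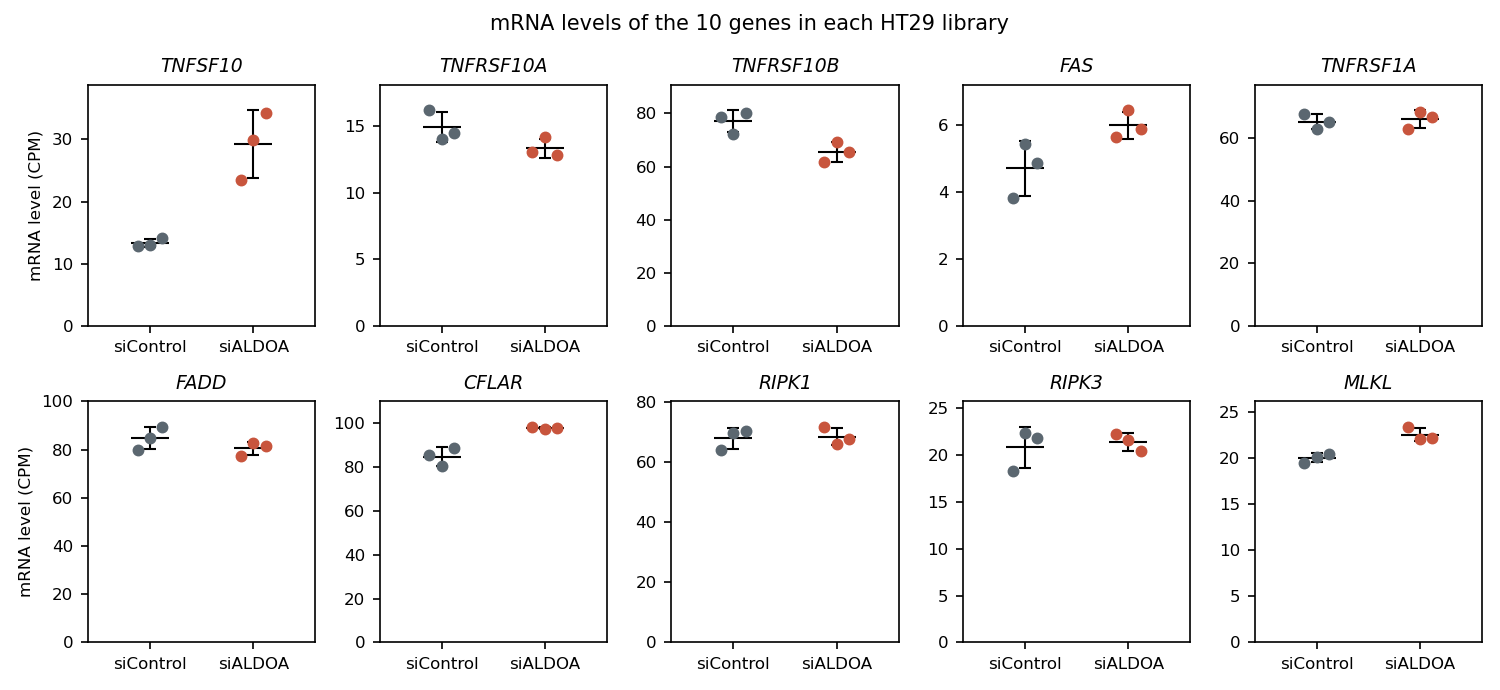
Levels of the 10 genes (CPM, vertical axes from 0) in the 3 siControl and the 3 siALDOA libraries; points are libraries, ordered by replicate number from left to right, and bars give the mean ± SD. The TNFSF10 points of siALDOA, from 23.5 to 34.3 CPM, lie above all siControl points, which end at 14.1 CPM, and the groups also separate for TNFRSF10B, FAS, CFLAR and MLKL.

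**Figure D2:**
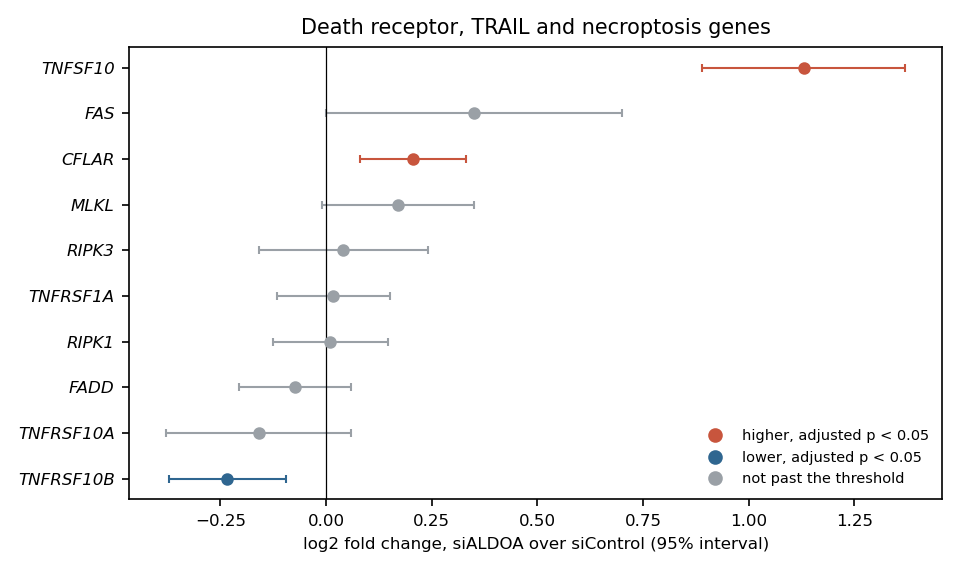
Log2 fold changes of siALDOA over siControl with 95% intervals for the 10 genes; colours mark adjusted p < 0.05 in edgeR's test. TNFSF10, at 1.13, stands apart from the other 9 genes, which lie between -0.23 and 0.35.

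Since TNFSF10 is a known interferon target, the promoter windows of the genes were searched for the core of the interferon-stimulated response element, GAAA and again GAAA with any 2 bases between them, and for that of the gamma-activated site, TTCNNNGAA, on both strands. The windows, from RefSeq (GRCh38.p14), run from 250 bases before to 50 bases after each annotated start. They were given for 7 of the 10 genes, not for TNFRSF10A, TNFRSF10B and RIPK3. The first motif was present for TNFSF10 and for RIPK1, in 2 of its 3 windows, which share the same match, and in no window of FAS, TNFRSF1A, FADD, CFLAR or MLKL. The second motif was found in none of the 14 windows of these genes. Over all promoter windows, 3.57% held the first motif and 7.66% the second. Counted per gene, the shares were 4.38% and 9.38%. Both matches are shown with 10 bases on each side, because the 2 genes that share this word differ in their change. The sequences read 5′ to 3′ on the gene's own strand, and capitals mark the match, which is the reverse complement of the motif as written above:
TNFSF10: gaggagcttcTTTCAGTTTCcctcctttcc
RIPK1: cgcgcggaggTTTCGGTTTCctcttttacg
The TNFSF10 stretch lies at chr3:172523598-172523627 of hg38, on the minus strand, and its match begins 187 bases upstream of the annotated start. The RIPK1 stretch lies at chr6:3068301-3068330, on the plus strand, and its match begins 67 or 183 bases upstream, depending on the annotated start. A match of letters is a description and shows no binding. TNFSF10 was up-regulated in these cells, while RIPK1 changed by 0.010 on the log2 scale.

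TNFSF10 (ENSG00000121858, chromosome 3, 172505508 to 172523475 in hg38) encodes TRAIL. Its level was 12.9, 12.9 and 14.1 CPM in siControl replicates 1 to 3 and 23.5, 29.9 and 34.3 CPM in siALDOA replicates 1 to 3. The groups did not overlap, and the siALDOA libraries differed more among themselves than the siControl libraries did, with an SD of 5.44 against 0.698 CPM. The mean rose from 13.3 to 29.2 CPM (n = 3 each), equal to a log2 fold change of 1.13 ± 0.116 (SE, adjusted p = 9.13e-07). This corresponds to 2.19-fold, with a 95% interval of 1.85-fold to 2.59-fold. No single library carried this difference, as leaving out each in turn gave log2 fold changes from 1.00, without siALDOA replicate 3, to 1.27, without siALDOA replicate 1, with an adjusted p of at most 3.58e-05.

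The genes with the most similar profile to TNFSF10 were F5, GANAB, UNKL, TRAFD1 and ADAR, with Pearson correlations of log2 CPM between 0.996 and 0.998 over the 6 libraries. They were the highest of 13723 genes, of which 513 had a correlation above 0.9, and since the 6 libraries form 2 groups, the values describe these libraries only. On the log2 scale GANAB rose by 0.50, ADAR, an interferon-inducible RNA-editing enzyme, by 0.43, TRAFD1 by 0.33 and F5 by 0.24, while UNKL, with 0.13, did not pass the threshold (adjusted p = 0.347).

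Interferon-response genes were high in the same libraries. A list of 10 genes (IFIT1, IFIT3, RSAD2, ISG15, STAT2, IRF1, IRF7, IRF9, IFNB1 and IFNL1) summed to 665.5 to 761 CPM in siControl and to 1476 to 1781 CPM in siALDOA. All 9 of its tested genes were higher with siALDOA at an adjusted p < 0.05, where 4.36% of all tested genes were higher. The list was chosen with earlier results of these data known, so this count is only a description. IFNB1 had too few counts to be tested. Among the siALDOA libraries, replicate 1 was the lowest for TNFSF10 and for this sum alike, with 1476 CPM against 1781 and 1753 CPM in replicates 2 and 3. That library also had the highest share of ribosomal RNA genes in its group, 13.1% against 7.71% and 8.11%, while in siControl the shares were 17.4%, 15.3% and 8.15%. The parts of the interferon response and of this composition in the TNFSF10 level were not tested.

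**Figure D3:**
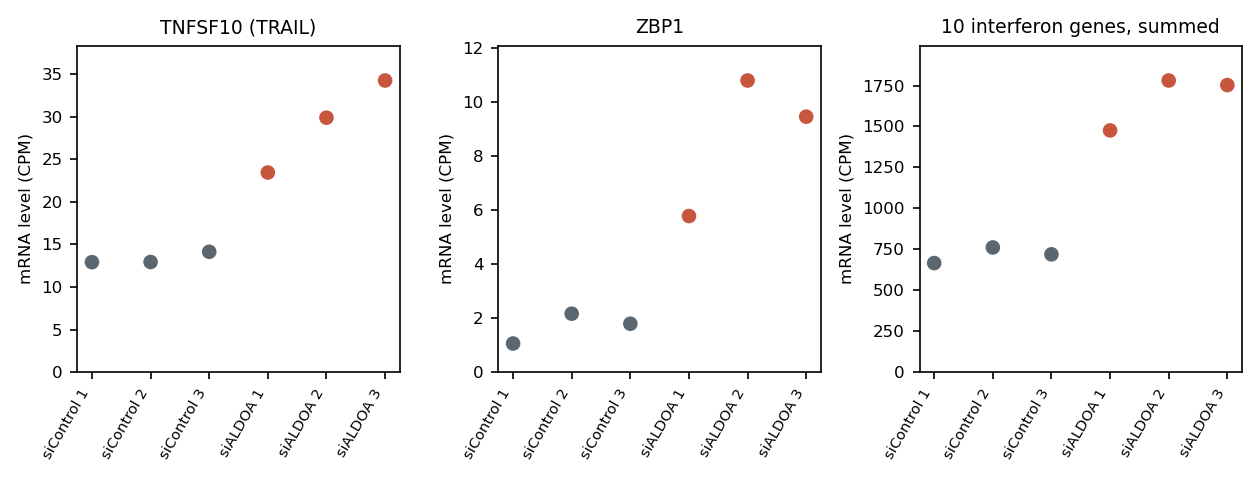
Levels (CPM, axes from 0) of TNFSF10, of the nucleic acid sensor ZBP1 and of the 10 summed interferon-response genes in each of the 6 libraries, siControl in grey and siALDOA in red. In all 3 panels every siALDOA library lies above every siControl library, and siALDOA replicate 1 is the lowest of its group.

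Of the death receptors for TRAIL, DR5 was lower at the mRNA level and DR4 did not pass the threshold. TNFRSF10B (ENSG00000120889, chromosome 8, 23020133 to 23069031), which encodes DR5, was at 78.5, 72.3 and 80.2 CPM in siControl and at 61.8, 69.1 and 65.5 CPM in siALDOA. Every siALDOA library was below every siControl library. On average it fell from 77.0 ± 4.16 to 65.5 ± 3.66 CPM (SD, n = 3), which is a log2 fold change of -0.23 ± 0.0663 (SE, adjusted p = 0.0297). This small decrease lost the threshold in 4 of the 6 fits that left out 1 library, namely siALDOA replicate 1 or 3 or siControl replicate 1 or 3, with adjusted p up to 0.157. With scaling by library totals only it was -0.16 (adjusted p = 0.297). TNFRSF10B shares 377 exon bases with RHOBTB2 on the opposite strand, which did not pass the threshold (adjusted p = 0.606).

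TNFRSF10A (ENSG00000104689, chromosome 8, 23190452 to 23225102), which encodes DR4, was at 16.2, 14.1 and 14.5 CPM in siControl and at 13.1, 14.2 and 12.8 CPM in siALDOA, so that the groups overlapped. The log2 fold change was -0.16 (standard error 0.105, adjusted p = 0.391), with a 95% interval from -0.38 to 0.060. A fold change as large as that of TNFSF10, in either direction, lies outside this interval.

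FAS (ENSG00000026103, chromosome 10, 88953813 to 89029605), the receptor of FAS ligand, was at 3.82, 5.41 and 4.86 CPM in siControl and at 5.64, 6.42 and 5.88 CPM in siALDOA. All siALDOA libraries were above all siControl libraries, but the difference of 0.35 ± 0.168 (SE) on the log2 scale had an adjusted p of 0.212, above the threshold. Its 95% interval reached 0.70, and the level rested on 119 to 193 counts per library. FAS shares 1899 exon bases with ENSG00000286116 and 387 with ACTA2, both on the opposite strand, and 166 with STAMBPL1 on the same strand, and the strand setting of the counting is not stated. Neither ACTA2 nor STAMBPL1 passed the threshold (adjusted p = 0.300 and 0.301 in edgeR's test). The ligand gene FASLG had 5 counts in siALDOA replicate 1 and 0 in the other 5 libraries.

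TNFRSF1A (ENSG00000067182, chromosome 12, 6328757 to 6342114), which encodes TNFR1, ranged from 62.7 to 67.6 CPM in siControl and from 62.7 to 68.3 CPM in siALDOA. The ranges nearly coincided. Its log2 fold change was 0.017 (standard error 0.0641, adjusted p = 0.907), with a 95% interval from -0.12 to 0.15. TNF, the gene of its ligand, had at most 4 counts in any library.

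Of the genes for c-FLIP and FADD, CFLAR passed the threshold and FADD did not. CFLAR (ENSG00000003402, chromosome 2, 201116154 to 201176687), the gene of this inhibitor of caspase-8 activation, was at 85.4, 80.4 and 88.6 CPM in siControl and at 98.2, 97.3 and 98.0 CPM in siALDOA. The siALDOA libraries lay close together and above all siControl libraries. On average it rose from 84.8 ± 4.11 to 97.8 ± 0.499 CPM (SD, n = 3), which is a log2 fold change of 0.21 ± 0.0602 (SE, adjusted p = 0.0342), or 1.15-fold. The rise kept an adjusted p < 0.05 in only 1 of the 6 fits that left out a library, the one without siALDOA replicate 1, and reached an adjusted p of 0.186 without siControl replicate 2. CFLAR shares 1488 exon bases with IMPDH1P10 and 777 with CFLAR-AS1, both on the opposite strand, and 445 with ENSG00000234431 on the same strand. CFLAR-AS1 was near 1 CPM in both groups. Counts per gene symbol do not separate the long and the short forms of c-FLIP.

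FADD (ENSG00000168040, chromosome 11, 70203296 to 70207390), the adaptor that joins the receptors to caspase-8, ranged from 80.0 to 89.4 CPM in siControl and from 77.4 to 82.7 CPM in siALDOA. The groups overlapped, and its log2 fold change of -0.074 ± 0.0631 (SE, adjusted p = 0.529) had a 95% interval from -0.21 to 0.058. FADD shares 1011 exon bases with ENSG00000254721 on the opposite strand, and its canonical transcript has 1708 bases.

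The mRNAs of the necroptosis kinases differed little. RIPK1 (ENSG00000137275, chromosome 6, 3063824 to 3115187) was at 67.9 ± 3.47 CPM (SD, n = 3) in siControl and at 68.4 ± 2.91 CPM (SD, n = 3) in siALDOA, with a 95% interval of the log2 fold change from -0.13 to 0.15. RIPK3 (ENSG00000129465, chromosome 14, 24336025 to 24340022), which is silenced in many tumor lines, was expressed in all 6 libraries. It was at 18.3, 22.3 and 21.8 CPM in siControl and at 22.2, 21.6 and 20.4 CPM in siALDOA, with overlapping groups and a log2 fold change of 0.041 ± 0.0959 (SE, adjusted p = 0.845). RIPK3 shares 358 exon bases with ENSG00000258973 on the same strand.

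MLKL (ENSG00000168404, chromosome 16, 74671855 to 74700960), the executioner of necroptosis, was at 19.5, 20.2 and 20.5 CPM in siControl and at 23.4, 22.1 and 22.2 CPM in siALDOA. The groups did not overlap. Still, the difference of 0.17 ± 0.0866 (SE) on the log2 scale had an adjusted p of 0.242, above the threshold, and the 95% interval ran from -0.010 to 0.35. Each fit that left out 1 library gave a log2 fold change between 0.14 and 0.19.

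To compare levels between genes, the CPM were divided by the length of the canonical transcript in GENCODE release 44. In siControl the order per length was FADD, with 49.6 ± 2.75 CPM per kb (SD, n = 3), then TNFRSF1A with 30.0, TNFRSF10B with 19.3, RIPK1 with 16.6, RIPK3 with 11.1, MLKL with 8.10, TNFSF10 with 7.11, CFLAR with 5.80, TNFRSF10A with 5.55 and FAS with 1.27 CPM per kb. In siControl the ranges over libraries overlapped for 1 pair of neighbours, CFLAR and TNFRSF10A. In siALDOA, TNFSF10 took the fifth place instead of the seventh, with 15.6 ± 2.90 CPM per kb (SD, n = 3), and its range then overlapped those of TNFRSF10B, at 16.4 CPM per kb, and RIPK1, at 16.7. This order depends on the length used. With the median length of each gene's protein-coding transcripts, CFLAR, whose canonical transcript has 14612 bases and whose median has 1679, would be the highest in siControl, at 50.5 CPM per kb. TNFSF10 would then take the ninth place in siControl, with 7.63 CPM per kb below TNFRSF10A with 8.14, and the sixth in siALDOA, with 16.7 CPM per kb. FAS stays the lowest in siControl under both lengths, with 2.13 CPM per kb under the median one.

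**Figure D4:**
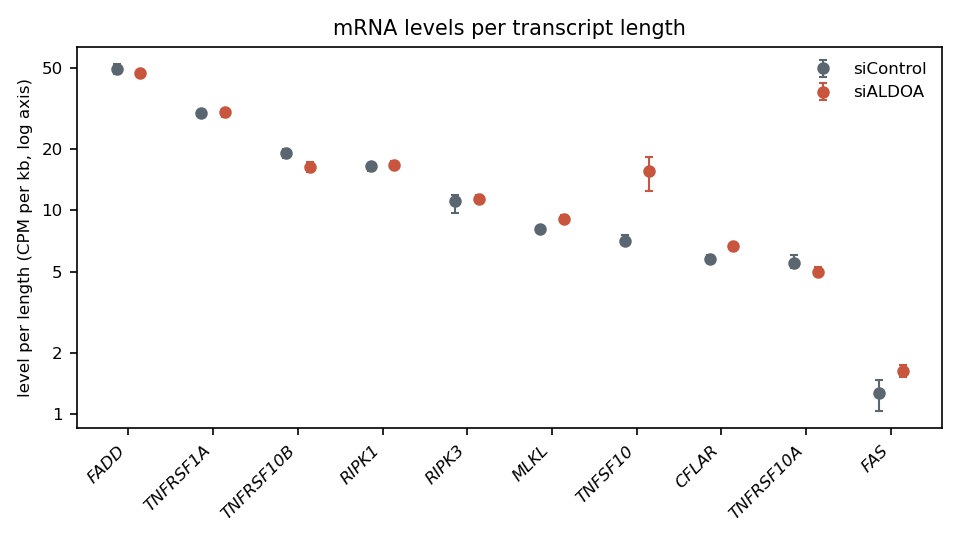
Level per length (CPM per kb of canonical transcript, log axis) of the 10 genes in siControl (grey) and siALDOA (red), ordered by siControl; points are means and bars the range over 3 libraries. TNFSF10 lies at 7.11 CPM per kb in siControl, between MLKL and CFLAR, and at 15.6 in siALDOA, between TNFRSF10B and RIPK3, and FAS is the lowest gene in both groups.

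The other genes of the pathway were taken as a list of 34 ligands, receptors, adaptors, ubiquitin regulators, caspases and necroptosis sensors, of which 30 had enough counts to be tested. Of these, 2 were up-regulated (ZBP1 and CYLD) and 2 down-regulated (TICAM1 and TNFRSF21), while 26 did not pass the threshold. These 4 calls are 13.3% of the tested genes of the list, beside 9.66% of all tested genes. The median log2 fold change of the list was 0.032, against 0.002 over all tested genes.

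ZBP1 (chromosome 20, 57603846 to 57620576), a sensor of nucleic acids in the Z-form that can engage RIPK3, had the largest fold change of the list. It was at 1.06, 2.16 and 1.79 CPM in siControl and at 5.78, 10.8 and 9.47 CPM in siALDOA, a log2 fold change of 2.38 ± 0.247 (SE, adjusted p = 1.10e-06). The groups did not overlap. ZBP1 is interferon-inducible, and like TNFSF10 it was lowest in siALDOA replicate 1 among the siALDOA libraries, and the part of the interferon response in its level was not tested either. TICAM1, which encodes the TLR3 adaptor TRIF, which can also engage RIPK3, went the opposite way. It fell from 18.3 ± 1.51 to 13.8 ± 0.411 CPM (SD, n = 3), or by a log2 fold change of -0.40 ± 0.100 (SE, adjusted p = 0.0139). The adjusted p was 0.0853 when siControl replicate 3 was left out and 0.0826 with scaling by library totals only.

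CYLD, a deubiquitinase that acts on RIPK1, rose by 0.32 on the log2 scale (adjusted p = 0.0472) and passed the threshold in none of the fits without 1 library. TNFRSF21, the death receptor DR6, fell from 273 ± 9.38 to 238 ± 11.1 CPM (SD, n = 3), or by 0.20 on the log2 scale (adjusted p = 0.0336). It lost the threshold in 5 of the 6 fits without 1 library and had an adjusted p of 0.427 with scaling by library totals only.

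None of the decoy receptors of TRAIL and FAS ligand passed the threshold. TNFRSF10D, a TRAIL receptor without a functional death domain, was at 13.0 ± 2.09 CPM in siControl and at 10.1 ± 0.285 CPM in siALDOA (SD, n = 3), with groups that did not overlap. Its log2 fold change of -0.37 had an adjusted p of 0.0691 in edgeR's test, and 4 alternative settings brought it under 0.05. TNFRSF10C, named after its values were seen, had 4 to 30 counts per library and a log2 fold change of 1.13 with a wide 95% interval, from 0.066 to 2.19 (adjusted p = 0.181). TNFRSF11B (osteoprotegerin) and TNFRSF6B (decoy receptor 3) were below 3 CPM in every library, with log2 fold changes of -0.16 and -0.47. TNFRSF6B lies wholly within the readthrough gene RTEL1-TNFRSF6B, so that its counts are uncertain.

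CASP8, TRADD, BIRC2 and BIRC3, which act below the receptors, did not pass the threshold. CASP8 had a log2 fold change of 0.035 (95% interval from -0.12 to 0.19), TRADD of 0.028, BIRC2 of -0.033 and BIRC3 of 0.072. These values were smaller than 1 standard error for all 4 genes. Of the 34 genes, the ligands FASLG, TNF and LTA and the receptor TNFRSF1B had too few counts to be tested, with at most 14 counts in any library.

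**Figure D5:**
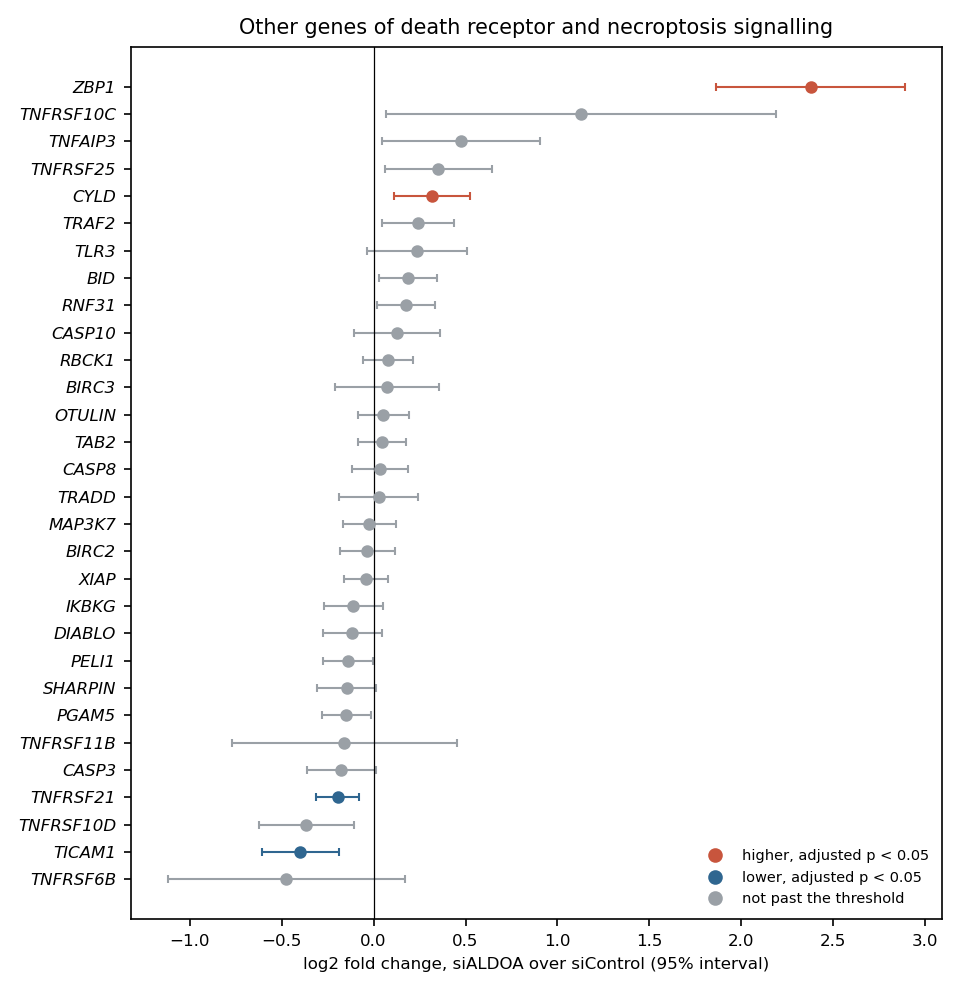
Log2 fold changes of siALDOA over siControl with 95% intervals for the 30 tested genes of the pathway list; colours mark adjusted p < 0.05 in edgeR's test. ZBP1 lies at 2.38, CYLD is the other gene that rose, TICAM1 and TNFRSF21 fell, and the interval of TNFRSF10C is the widest.

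Over all tested genes, 668 were higher and 810 lower at an adjusted p < 0.05, and with scaling by library totals only the counts were 896 and 279. Under that scaling the median of all tested genes was 0.075, TNFSF10 rose by 1.21 and CFLAR by 0.28 on the log2 scale, and the median of the 10 genes was 0.10. At the unadjusted threshold of 0.01, which 12.5% of all tested genes passed (5.72% higher and 6.74% lower), the same 3 of the 10 genes passed as at the adjusted one.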

How the data were processed

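The 6 RNA-Seq libraries, 3 siALDOA and 3 siControl, were grouped by the sample labels. Reads had been mapped by the authors to hg38 (tophat2) and assigned to genes by gfold, and the deposited files hold whole-number counts without normalization. The annotation, strand setting and treatment of multi-mapped reads are not given in the sources used here. The groups were compared with edgeR 4.0.16 in R 4.3.3 (filterByExpr, TMM, quasi-likelihood F-test, no covariate). Each standard error was obtained from the log2 fold change and its F value, and 95% intervals use the t distribution with the test's degrees of freedom. log2 CPM for the correlations used a prior count of 2. The alternatives were limma-voom (limma 3.58.1), DESeq2 1.42.0, the likelihood ratio test, other scalings and filters, no ribosomal RNA genes, a replicate block, the unadjusted threshold and each library left out. Dividing by the median transcript length was added after the data were seen. Gene positions and lengths came from GENCODE release 44 (hg38) and promoters from RefSeq. The fit was also run on simulated counts as a check of the code, and no result above rests on it. The changes planted there were larger than those of CFLAR and TNFRSF10B. Figures were drawn with matplotlib 3.10.9.

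The members, gene lists and motifs were chosen with earlier results of these data known. Beside ALDOA and the 10 genes, pathway genes were named if their adjusted p was below 0.05 or if they were on a fixed list (CASP8, ZBP1, TRADD, TNFRSF10D, TNFRSF11B, TNFRSF6B, BIRC2, BIRC3, TNF). The labels call the samples biological replicates, without saying whether they came from separate cultures. The p-values therefore weigh the difference between the groups against the spread between these samples only. At 27277538 to 33237914 counts per library, FAS rested on 119 to 193 counts, and the other 9 genes on more. FASLG, LTA, TNFRSF1B and others outside the rule were named after their values were seen. A gene of the pathway list and a gene of the interferon list are not reported here and were left out of the counts and sums of these lists.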

Additional observations from a re-analysis of the deposited data

How the results depend on the processing

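ALDOA, TNFSF10 and ZBP1 kept their direction and an adjusted p < 0.05 under all 16 alternatives tried for each, with log2 fold changes from -1.17 to -1.06, from 1.00 to 1.27 and from 2.14 to 2.60. With scaling by library totals only, 279 genes were lower, and 0 of the 10 genes and 0 of the pathway list were lower. The median of the 10 genes was then 0.10, and BIRC2 was at 0.040. This scaling leaves out the TMM factors, which were 0.9887, 1.048 and 1.042 in siALDOA replicates 1 to 3. In siControl replicates 1 to 3 they were 0.9385, 0.9549 and 1.033. Why the composition of the libraries differed was not tested. Leaving out 1 library gave 359 to 644 higher and 471 to 790 lower genes, the lowest without siControl replicate 2 and without siControl replicate 3. In these fits 1 to 2 of the 10 genes were higher and 0 to 1 lower, and 1 to 2 genes of the pathway list were higher and 0 to 2 lower; fewer samples entered each of them. Genes near 0 changed sign when 1 library was left out, with ranges from -0.011 to 0.051 for TNFRSF1A, -0.032 to 0.035 for RIPK1, -0.044 to 0.092 for RIPK3, -0.0040 to 0.093 for CASP8, -0.053 to 0.12 for TRADD, -0.097 to 0.027 for BIRC2 and -0.097 to 0.18 for BIRC3. None of them passed the threshold in any alternative. CYLD had an adjusted p of 0.0537 in limma-voom and 0.0546 without the filter on low counts, where 1 gene of the pathway list was then higher. TNFRSF10D had 0.0411 in the likelihood ratio test and 0.0422 without siControl replicate 1.

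The replicate numbers were not treated as pairs, because the deviations of same-numbered libraries from their group means correlated by 0.035, 0.027 and 0.026, each below 0.1, and the labels name no shared batch. Each library correlated best with its own number, which is a hint from the data and not from the design. The replicate block gave 987 higher and 1175 lower genes, left the same number of calls among the 10 genes, 2 higher and 1 lower, gave 3 higher and 3 lower genes in the pathway list where the fit without it gave 2 and 2, and took TNFRSF10D to an adjusted p of 0.0449. Of the 10 genes, FAS rested on the fewest counts, 119 to 193 per library, and in the pathway list TNFRSF10C had 4 to 30.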
